A study of Arabidopsis thaliana with 12 samples.

Results

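The marneral and thalianol gene clusters of Arabidopsis thaliana were examined in RNA-Seq of seedlings. The members were given as a list of loci by a rule that uses no measured value, although earlier results of these data were known when the clusters were picked, and comprised 8 of the 33557 genes of the deposited matrix, 3 in the marneral cluster and 5 in the thalianol cluster. All 8 passed the filter on low values (a mean of at least 0.5 FPKM over the 12 libraries), as did 20645 genes in all. The genotypes were *bli ire1a*, *bli ire1b*, *bli* and WT, each with 3 libraries from seedlings of the Columbia strain, labelled as 12 days old, whereas the study's methods give a later age. *bli* carried the T-DNA allele *bli-1*, and both double mutants carried *bli-1* together with a T-DNA insertion in *IRE1A* or in *IRE1B*. No *ire1a* or *ire1b* single mutant was analysed here, so each double mutant was set against *bli* and against WT. *MRN1* passed the filter only through its *bli* libraries (mean 2.62 FPKM). Its means were 0.351 FPKM in *bli ire1a*, 0.603 FPKM in *bli ire1b* and 0.143 FPKM in WT, and those libraries together averaged under 0.5 FPKM. Counts of called members in comparisons with *bli* include *MRN1* and are not free of this filter. BLI is a plant protein that binds the Polycomb methyltransferase CLF, and IRE1A and IRE1B are kinase and ribonuclease proteins that splice the *bZIP60* mRNA in the unfolded protein response.

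Plants make sterols and triterpenes by folding oxidosqualene into rings with an oxidosqualene cyclase, after which cytochrome P450 enzymes and acyltransferases decorate the product. In Arabidopsis several of these specialised pathways are encoded by neighbouring genes, and the marneral and thalianol clusters are known to be transcribed mainly in roots and to carry the Polycomb mark H3K27me3 in tissues where they are silent. MRN1 is the cyclase that makes marneral and CYP71A16 oxidises its product, while CYP705A12 is a P450 of the same cluster. THAS1 is the cyclase that makes thalianol, THAH (CYP708A2) hydroxylates it, THAD (CYP705A5) introduces a double bond, and THAA1 and THAA2 are acyltransferases.

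In the RefSeq annotation of TAIR10.1 both clusters lie on chromosome 5, 2.36 Mb apart. The marneral cluster ran over 34.7 kb, with *CYP705A12* (AT5G42580) at chr5:17023502-17025361 on the minus strand, *CYP71A16* (AT5G42590) at chr5:17031024-17033800 on the minus strand and *MRN1* (AT5G42600) at chr5:17053453-17058245 on the plus strand. The thalianol cluster ran over 44.7 kb and began with *THAA2* (AT5G47950) at chr5:19417020-19418657 on the minus strand and *THAA1* (AT5G47980) at chr5:19428888-19430517 on the plus strand. It went on with *THAD* (AT5G47990) at chr5:19434758-19436749 on the plus strand, *THAH* (AT5G48000) at chr5:19444103-19447866 on the minus strand and *THAS1* (AT5G48010) at chr5:19456837-19461706 on the plus strand. The 2 cyclase genes had 14 exons each and the acyltransferase genes 1 exon each, and no annotated gene overlapped a member. The deposited values carry no coordinates, and these positions come from TAIR10.1, a later release than the TAIR10 that the study's methods name.

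The promoters of the 3 members that were called higher in *bli* than in WT are printed below as the 250 bases before the annotated gene start, because these genes were called in the same direction although they lie in different clusters. The promoter of *THAD*, a thalianol gene that was not called there but holds a TGACGT match, is printed beside them. Capitals mark matches on either strand to TTGACN or to TGACGT (a core bound by bZIP factors). TTGACN is called W-box here but leaves the last base free, and so is looser than the element bound by WRKY factors. The windows were chr5:17053203-17053452 on the plus strand for *MRN1*, chr5:17025362-17025611 on the minus strand for *CYP705A12*, chr5:19418658-19418907 on the minus strand for *THAA2* and chr5:19434508-19434757 on the plus strand for *THAD*.
MRN1: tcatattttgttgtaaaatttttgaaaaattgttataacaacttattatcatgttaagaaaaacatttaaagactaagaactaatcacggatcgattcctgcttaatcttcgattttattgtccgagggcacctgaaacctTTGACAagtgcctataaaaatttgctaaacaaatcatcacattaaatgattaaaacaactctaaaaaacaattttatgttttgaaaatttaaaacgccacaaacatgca
CYP705A12: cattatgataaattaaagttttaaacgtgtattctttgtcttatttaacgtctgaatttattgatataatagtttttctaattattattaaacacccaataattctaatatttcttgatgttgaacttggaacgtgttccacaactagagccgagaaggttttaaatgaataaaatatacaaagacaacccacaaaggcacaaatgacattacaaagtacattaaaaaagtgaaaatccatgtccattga
THAA2: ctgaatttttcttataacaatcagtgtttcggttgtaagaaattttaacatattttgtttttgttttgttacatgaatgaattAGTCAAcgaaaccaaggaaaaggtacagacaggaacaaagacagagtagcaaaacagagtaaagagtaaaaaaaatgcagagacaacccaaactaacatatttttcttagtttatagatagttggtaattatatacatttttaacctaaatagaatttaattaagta
THAD: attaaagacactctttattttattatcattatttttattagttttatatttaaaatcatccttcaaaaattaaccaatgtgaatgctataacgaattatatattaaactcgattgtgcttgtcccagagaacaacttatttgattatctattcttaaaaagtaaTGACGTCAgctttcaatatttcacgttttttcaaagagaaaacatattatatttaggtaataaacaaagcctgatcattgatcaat

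A W-box match stood in 4 of the 8 promoters (*MRN1*, *CYP71A16*, *THAH* and *THAA2*), and 44.8% of the 27443 promoters of the same length held one. Relative to the gene start, the match in *MRN1* began at position -109 and that in *THAA2* at position -167, while *CYP705A12* had no capitals. TGACGT was found in 1 of 8, *THAD*, where a palindrome gives 1 overlapping match on each strand, against 7.69% of promoters in all. The G-box CACGTG (6.49% of all promoters) and the ER stress elements ERSE (0.689%) and ERSE-II (0.0619%) were in 0 of 8. These are matches of letters in a short window and were not read as binding sites.

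The mutated genes followed the labels. *BLI* had 8.94 to 13.4 FPKM in the 9 mutant libraries, against 16.8 to 17.7 FPKM in WT. *IRE1A* had 4.45 to 5.68 FPKM in *bli ire1a*, against 15.04 to 24.2 FPKM in the other 9 libraries, and *IRE1B* had 4.56 to 5.34 FPKM in *bli ire1b*, against 9.21 to 11.4 FPKM in the other 9.

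FPKM (fragments of a gene's transcript scaled by its length and by the library's mapped fragments) can be set side by side between genes. On that scale the thalianol genes *THAD*, *THAH* and *THAS1* were the highest members in every genotype, and *MRN1* was the lowest in WT. In WT the levels were 9.66 ± 1.64 FPKM for *THAD*, 7.72 ± 0.0333 FPKM for *THAH* and 6.74 ± 0.921 FPKM for *THAS1* (SD, n = 3), against 0.143 ± 0.0529 FPKM for *MRN1* (SD, n = 3). So the cyclase of one cluster was well above detection in WT seedlings and that of the other was close to the lower end of what these libraries resolve.

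**Figure D1:**
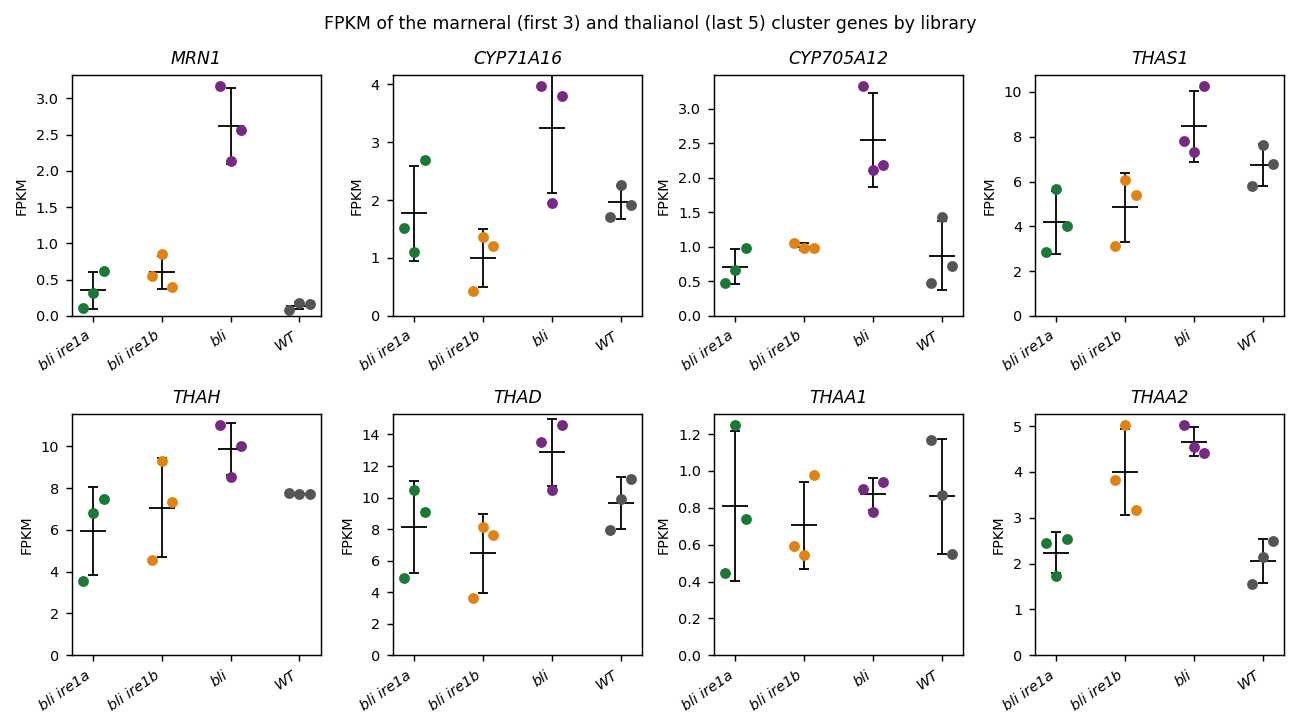
FPKM of the 8 members in each library, with one panel per gene and the genotypes *bli ire1a*, *bli ire1b*, *bli* and WT on the horizontal axis. Points are libraries, the wide bar is the mean and the whiskers are the SD of 3 libraries. *MRN1* and *CYP705A12* are highest in the 3 *bli* libraries with no overlap, whereas *THAA2* is high in both *bli* and *bli ire1b*.

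The first question was which cluster genes changed when BLI alone was lost. *MRN1*, *CYP705A12* and *THAA2* were up-regulated in *bli* relative to WT, and the other 5 members did not pass the test. A call required that limma on log2(FPKM + 0.1) gave a p of 0.05 or less after Benjamini-Hochberg adjustment, and that the level at least doubled or fell to 0.5 times or lower. In *bli*, 3 of 8 members were called higher, against 4.15% of all genes tested, and 0 of 8 were called lower, against 5.08% of all genes. The 3 include *MRN1*, which passed the filter only through its *bli* libraries. In whole seedlings, fewer cells of a type and less RNA per cell cannot be told apart.

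*MRN1*, the marneral cyclase, had 3.17, 2.13 and 2.56 FPKM in *bli*, against 0.0823, 0.180 and 0.166 FPKM in WT. Every *bli* library was far above every WT library, and the log2 fold change was 3.49 (standard error 0.47, adjusted p = 0.00022 from limma). *CYP705A12* had 3.33, 2.11 and 2.19 FPKM in *bli*, against 0.471, 1.43 and 0.723 FPKM in WT. Its groups did not overlap either, and its log2 fold change was 1.53 (standard error 0.37, adjusted p = 0.0081 from limma). *CYP71A16* had 3.97, 1.96 and 3.80 FPKM in *bli*, against 1.70, 2.26 and 1.92 FPKM in WT. Its second *bli* library lay among the WT libraries, and its log2 fold change of 0.64 did not pass the test (adjusted p = 0.28 from limma, 95% interval -0.30 to 1.59).

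The acyltransferase *THAA2* was the only thalianol gene called, and its change was not tested against those of the other members. It had 5.02, 4.55 and 4.41 FPKM in *bli*, against 1.55, 2.14 and 2.50 FPKM in WT. The groups were separate and the log2 fold change was 1.16 (standard error 0.22, adjusted p = 0.0020 from limma). Without WT replicate 1 it was 0.98, and with a pseudocount of 1 it was 0.90, both under the fold cutoff. *THAS1* had 7.81, 7.31 and 10.3 FPKM in *bli*, against 5.80, 7.64 and 6.79 FPKM in WT, so the groups overlapped. *THAH* had 11.005, 8.54 and 10.02 FPKM in *bli*, against 7.76, 7.70 and 7.71 FPKM in WT. Here the *bli* libraries were all above WT but by a small margin. *THAD* had 13.5, 10.5 and 14.6 FPKM in *bli*, against 7.91, 9.91 and 11.2 FPKM in WT. The log2 fold changes of these 3 genes were 0.32, 0.34 and 0.41, with adjusted p of 0.41, 0.38 and 0.36 from limma. *THAA1* had 0.904, 0.776 and 0.942 FPKM in *bli*, against 1.17, 0.871 and 0.548 FPKM in WT, and the ranges overlapped (log2 fold change 0.07). The median log2 fold change was 1.53 for the marneral genes and 0.34 for the thalianol genes, against -0.01 over all genes tested.

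With IRE1A also lost, no member differed from WT by the call. In *bli ire1a* relative to WT, 0 of 8 members were called in either direction by limma, where 1.38% of all genes were called higher and 1.54% lower. *MRN1* had 0.114, 0.316 and 0.623 FPKM in *bli ire1a*, and its lowest library lay within the WT range (log2 fold change 0.75, 95% interval -0.29 to 1.78, adjusted p = 0.33 from limma). *THAS1* had 2.87, 5.67 and 3.997 FPKM in *bli ire1a*, all below the WT libraries, with an unadjusted p of 0.024, the only member under 0.05, and an adjusted p of 0.11 from limma. The median log2 fold change was -0.19 for the marneral genes and -0.30 for the thalianol genes, against 0.01 over all genes.

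**Figure D2:**
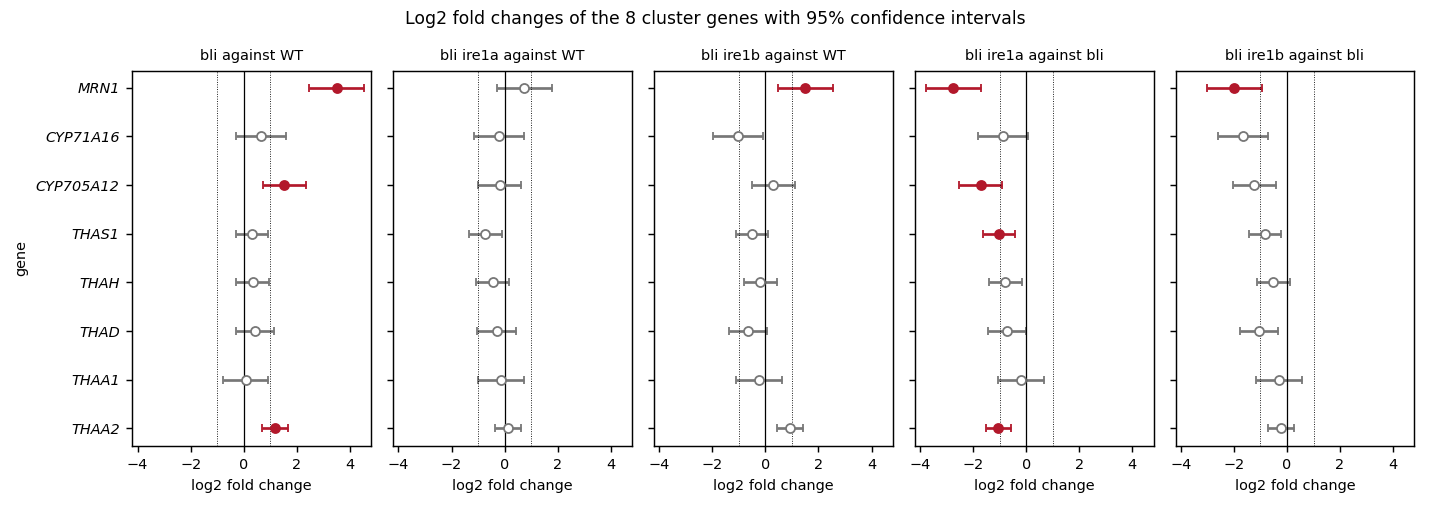
Log2 fold changes of the 8 members from limma in 5 comparisons, one panel each, with 95% confidence intervals. Filled red points passed the call, open grey points did not, and the dotted lines mark a log2 fold change of 1 in either direction. *MRN1* passed the call in 4 of the 5 panels.

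With IRE1B lost instead, *MRN1* stayed above WT. It had 0.553, 0.853 and 0.402 FPKM in *bli ire1b*, each above every WT library, and a log2 fold change of 1.51 (standard error 0.47, adjusted p = 0.026 from limma). It was the 1 member of 8 called higher, where 3.08% of all genes were called higher, and 0 of 8 were called lower, where 7.05% were. Without WT replicate 1, *bli ire1b* replicate 1 or *bli ire1b* replicate 2 the adjusted p of *MRN1* was 0.077, 0.056 or 0.094 from limma. *THAA2* had 3.82, 5.02 and 3.17 FPKM in *bli ire1b*, also above every WT library, with a log2 fold change of 0.93 that was under the fold cutoff (standard error 0.22, adjusted p = 0.0067 from limma). Without WT replicate 3 or *bli ire1b* replicate 3 it was 1.07 or 1.08 and passed. *CYP71A16* had 0.427, 1.36 and 1.21 FPKM in *bli ire1b*, all below the WT libraries, with a log2 fold change of -1.03 and an adjusted p of 0.078 from limma. By the study's rule on the unadjusted p it was the 1 of 8 members lower than WT, against 7.63% of all genes. With the root marker covariate, whose levels did not overlap between these 2 genotypes, its log2 fold change was 0.35, so the sign turned.

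The double mutants were then set against *bli*. Here too *MRN1* was tested only because its *bli* libraries carried it past the filter. In *bli ire1a*, 4 of 8 members were called lower than in *bli* (*MRN1*, *CYP705A12*, *THAS1* and *THAA2*), where 1.59% of all genes were, and 0 of 8 were called higher, where 1.45% were. Relative to *bli*, *MRN1* fell by 2.75 on the log2 scale, with a standard error of 0.47 (adjusted p = 0.0035 from limma), and *CYP705A12*, with 0.479, 0.670 and 0.990 FPKM in *bli ire1a*, fell by 1.72 (standard error 0.37 and adjusted p = 0.011 in limma). Both genes had separate groups. *THAA2* had 2.45, 1.72 and 2.54 FPKM in *bli ire1a*, near its WT level, and fell by 1.04 (standard error 0.22, adjusted p = 0.010 from limma). *THAS1*, the thalianol cyclase, likewise fell by 1.04 (standard error 0.28, adjusted p = 0.029 in limma), and its 3 *bli ire1a* libraries were below every *bli* library. The calls of *THAS1* and *THAA2* sat at the fold cutoff. That of *THAS1* was lost without any 1 of the *bli* libraries or without *bli ire1a* replicate 1 or 3 (adjusted p of 0.055 to 0.096 from limma), and when only the 2 genotypes were fitted (0.067), and that of *THAA2* without *bli* replicate 1 or *bli ire1a* replicate 2 (log2 fold changes of -0.99 and -0.87). Without *bli* replicate 1, 2 members were left.

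The other 4 members did not pass the test between *bli ire1a* and *bli*. *CYP71A16* had 1.51, 1.103 and 2.69 FPKM in *bli ire1a*, and 2.69 FPKM was above the lowest value in *bli*. *THAH* had 3.55, 6.81 and 7.50 FPKM in *bli ire1a*, all below *bli*, with an adjusted p of 0.092 from limma. *THAD* had 4.87, 10.5 and 9.06 FPKM in *bli ire1a*, and the highest of these was almost level with the lowest *bli* library. *THAA1* had 0.446, 1.25 and 0.738 FPKM in *bli ire1a* and overlapped all other genotypes. The median log2 fold change was -1.72 for the marneral genes and -0.78 for the thalianol genes, against 0.01 over all genes.

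In *bli ire1b*, *MRN1* was the 1 member of 8 called lower than in *bli*, where 0.915% of all genes were, and 0 of 8 were called higher, where 0.208% were. It fell by 1.99 on the log2 scale (standard error 0.47, adjusted p = 0.040 from limma), and the adjusted p was above 0.05 when any 1 of the 6 libraries of *bli ire1b* and *bli* was left out (0.071 to 0.14 from limma), and also without WT replicate 3 (0.051) or *bli ire1a* replicate 2 (0.056), which share the estimate of the spread. *CYP71A16* (log2 fold change -1.67, adjusted p = 0.053), *CYP705A12* (-1.23, adjusted p = 0.090) and *THAD* (-1.06, adjusted p = 0.099) missed the adjusted threshold of limma and passed the study's own rule, which uses the unadjusted p. By that rule 4 of 8 members were lower, against 1.81% of all genes. *CYP705A12* had 1.06, 0.978 and 0.978 FPKM in *bli ire1b*, below every *bli* library, and *THAD* had 3.60, 8.15 and 7.60 FPKM, likewise below. *THAS1* had 3.10, 6.06 and 5.38 FPKM in *bli ire1b*, also below every *bli* library, with an adjusted p of 0.12 from limma. *THAH* (4.56, 9.28 and 7.33 FPKM), *THAA1* (0.590, 0.547 and 0.976 FPKM) and *THAA2* overlapped *bli*. For *THAA2* the log2 fold change between *bli ire1b* and *bli* was -0.24, with a 95% interval of -0.72 to 0.25. All 8 members had a negative log2 fold change against *bli* in both double mutants, and both comparisons share the *bli* libraries. Over all genes the median was 0.01 for *bli ire1a* and 0 for *bli ire1b*. Several of the members' 95% intervals included 0, among them those of *THAA1* in both comparisons. The clusters were also picked with earlier results of these data known.

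The double mutants were compared directly as well. Between *bli ire1a* and *bli ire1b*, 0 of 8 members were called by limma, where 1.74% of all genes were called higher and 0.736% lower in *bli ire1a*. *THAA2* was the 1 member with an adjusted or unadjusted p under 0.05, and its log2 fold change of -0.81 was under the fold cutoff (standard error 0.22, adjusted p = 0.036 from limma). All 3 *bli ire1a* libraries of *THAA2* were below the 3 *bli ire1b* libraries. For *MRN1* the log2 fold change was -0.76, with a 95% interval of -1.80 to 0.28, and for *CYP71A16* it was 0.81, with an interval of -0.14 to 1.75. At 3 libraries per genotype these intervals do not separate the double mutants for the marneral genes.

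The depth behind the low members was estimated from the values themselves, since low FPKM values of a gene were whole multiples of a smallest step. A step was taken as 1 fragment, which was assumed and not tested, and the numbers would be larger if it held several. The implied fragments of *MRN1* were 5, 9 and 18 in *bli ire1a*, 15, 25 and 11 in *bli ire1b*, about 131, 83 and 58 in *bli*, and 2, 7 and 7 in WT. On that reading the WT level of *MRN1* rested on few fragments per library. Its fold change against WT is uncertain in size although the *bli* libraries stood well apart. By the same assumption *CYP705A12* rested on 10 to 15 fragments in *bli ire1a*, 14 to 15 in *bli ire1b*, about 26 to 72 in *bli* and 6 to 29 in WT. *THAA1* likewise rested on 9 to 21 fragments in every library. Replicate 1 of *bli ire1a* was the deepest by the size of its step (1.81 times WT replicate 1) and *bli* replicate 3 the shallowest (0.932 times). Multiples above 30 were not tested and are approximate.

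Root and shoot markers were examined because both clusters are known from roots and the samples were whole seedlings. Markers of both organs were present, and of the 16 root markers only *FEZ* was listed at 0, in *bli* replicate 1. Summed without *PYK10*, which alone exceeded the rest, the root markers had 95.9 to 144 FPKM in *bli ire1a*, 63.2 to 98.4 FPKM in *bli ire1b*, 90.2 to 141 FPKM in *bli* and 123 to 168 FPKM in WT. Of the 15 tested, 0 were called higher and 2 lower in *bli* relative to WT (median log2 fold change -0.47), and 0 higher and 8 lower in *bli ire1b* relative to WT (median -1.004). Over all genes 4.15% were called higher and 5.08% lower in *bli*, and 3.08% and 7.05% in *bli ire1b*. In *bli ire1a*, 0 of 15 were called against WT (median -0.27), where 1.38% of all genes were called higher and 1.54% lower. Against *bli*, 1 of 15 was called higher in *bli ire1a* (*NRT2.1*, a nitrate transporter, log2 fold change 1.40) and 0 of 15 were called in *bli ire1b*. Over all genes 1.45% were called higher in *bli ire1a*, and 0.208% higher and 0.915% lower in *bli ire1b*. In *bli* relative to WT, 13 of the tested root markers had a negative log2 fold change and 2 a positive one, from -2.18 to 0.08. Whether the cells that express the clusters changed in number was not tested.

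Within each of the 4 genotypes the library with the lowest root marker sum also had the lowest thalianol sum. The first *bli ire1a* library had 14.2 FPKM over the 5 thalianol genes, against 25.9 and 23.8 FPKM in the other two, and the first *bli ire1b* library had 15.7 FPKM, against 29.1 and 24.5 FPKM. In *bli* it was replicate 2, with 31.7 FPKM against 38.3 and 40.2 FPKM, and in WT replicate 1, with 24.2 FPKM against 28.2 and 28.7 FPKM. With the mean level of the root markers as a covariate, a fit chosen after seeing the data, 7 of 8 members (all but *THAA1*) were called higher in *bli* relative to WT, where 3.85% of all genes were. That mean log2 level was 2.69 to 3.14 in WT, 2.02 to 2.56 in *bli* and 1.59 to 2.22 in *bli ire1b*. As WT overlapped neither, the fit cannot separate genotype from root content in comparisons of these mutants with WT. In the same fit 7 of 8 were called lower in *bli ire1a* relative to *bli*, where 1.47% of all genes were, and 0 of 8 were called lower in *bli ire1b* relative to *bli*, where 0.872% were. The part of root content in the differences between genotypes was not tested otherwise. Of 11 shoot markers, 2 were called lower in *bli* and 4 in *bli ire1b* relative to WT, and 0 in *bli ire1a*, and *GL1* was listed at 0 in the first *bli ire1b* library. Over all genes 5.08%, 7.05% and 1.54% were called lower in the same order.

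**Figure D3:**
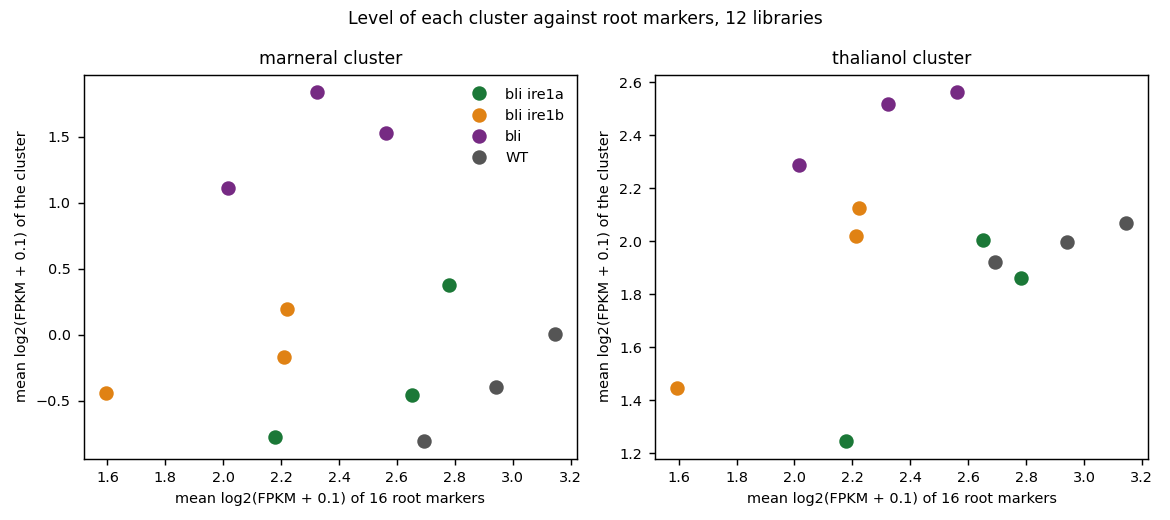
Mean log2(FPKM + 0.1) of the marneral cluster (left) and the thalianol cluster (right) against that of the 16 root markers, with one point per library coloured by genotype. The 3 *bli* libraries are the highest of the 12 in both panels. On the root marker axis the WT libraries lie at 2.69 to 3.14, and *bli ire1a* replicate 3, at 2.78, lies among them.

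The genes between the members by locus number were examined as well, with the nearest genes on each side that passed the filter. Flanking genes that failed it were skipped, so the share tested follows largely from this choice. Of the 15 genes so chosen, 14 were tested, and in *bli* relative to WT 0 were called higher and 1 lower, where 4.15% and 5.08% of all genes were. It was AT5G42630 (*ATS*, a KANADI factor of ovule development), with 1.35, 1.09 and 1.45 FPKM in *bli*, against 3.42, 4.35 and 3.29 FPKM in WT (log2 fold change -1.44, standard error 0.23, adjusted p = 0.00064 from limma). Inside the thalianol cluster AT5G47960 (*RABA4C*, a RAB GTPase) and AT5G47970 had log2 fold changes of 0.65 and -0.22 in *bli*, with adjusted p of 0.064 and 0.20 from limma. AT5G42591, which lies inside the marneral cluster by its locus number, was listed at 0 in all 12 libraries.

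**Figure D4:**
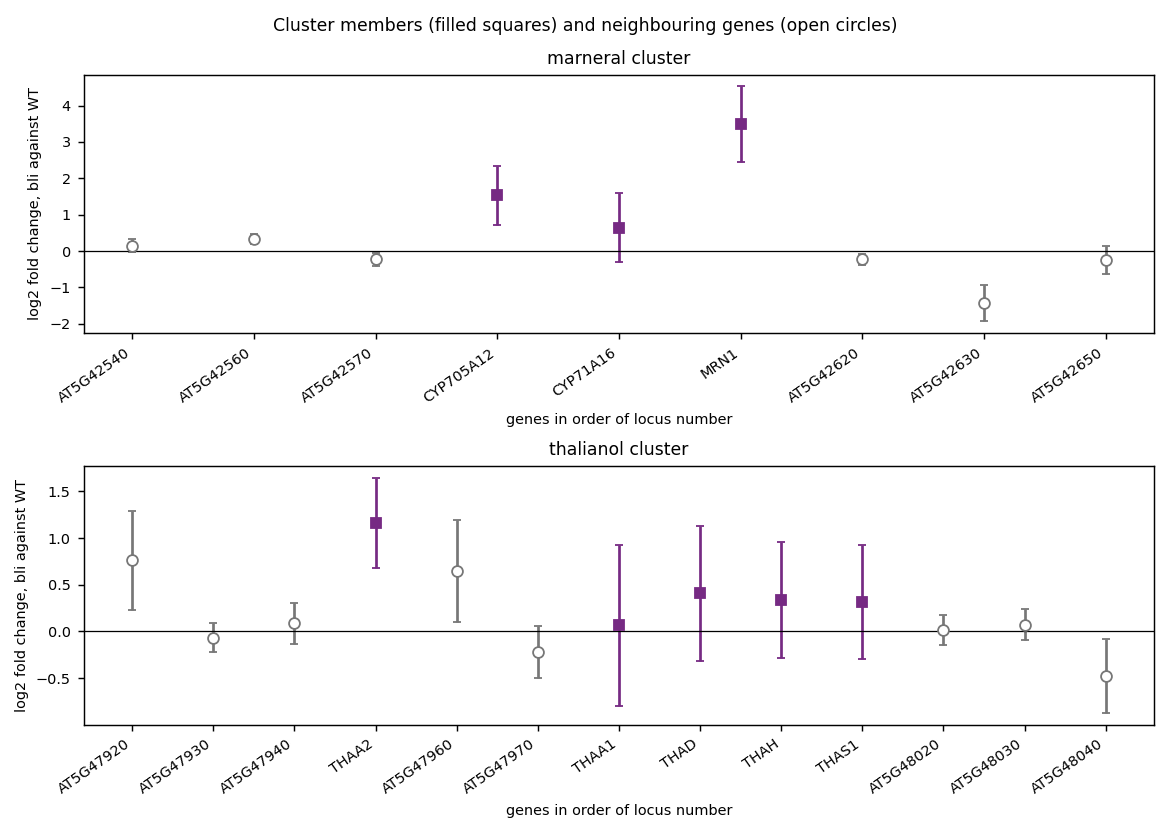
Log2 fold changes in *bli* relative to WT, with 95% confidence intervals, for the members (filled squares) and their tested neighbours (open circles) in order of locus number, with the marneral cluster above and the thalianol cluster below. *MRN1*, *CYP705A12* and *THAA2* are the called members, and AT5G42630 is the only neighbour called.

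Genes named for steps that supply or share the oxidosqualene precursor were compared with the clusters. Among the 5 tested of 11 cyclase genes outside them, *LAS1*, the lanosterol synthase, was called higher than WT in each mutant and the others were not called. It had 0.722, 1.08 and 0.602 FPKM in *bli ire1a*, 2.60, 1.96 and 3.29 FPKM in *bli ire1b*, and 5.47, 6.70 and 5.56 FPKM in *bli*, against 0.421, 0.369 and 0.169 FPKM in WT. The 4 genotypes did not overlap. Against WT the log2 fold changes were 1.12 (*bli ire1a*), 2.72 (*bli ire1b*) and 3.89 (*bli*) (adjusted p = 0.031, 5.3e-05 and 5.9e-06 from limma), and between *bli ire1a* and *bli ire1b* the log2 fold change of *LAS1* was -1.60, also called (adjusted p = 0.0068 from limma).

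Genes named as squalene epoxidases (*SQE*), the enzyme step that makes oxidosqualene, moved in both directions. Whether each of them has that activity was not tested. *SQE6* had 24.1, 26.5 and 23.6 FPKM in *bli ire1a*, 44.2, 46.8 and 59.1 FPKM in *bli ire1b*, and 68.6, 91.3 and 66.8 FPKM in *bli*, against 12.0, 11.2 and 9.98 FPKM in WT. The groups were again separate, with log2 fold changes against WT of 1.16 (*bli ire1a*), 2.16 (*bli ire1b*) and 2.75 (*bli*) (adjusted p = 0.00051, 1.5e-06 and 2.2e-07 from limma). Its neighbour by locus number, *SQE5*, was called lower than WT in all 3 mutants, with log2 fold changes of -1.66 (*bli ire1a*), -2.22 (*bli ire1b*) and -1.18 (*bli*). Reads shared between these neighbouring paralogs were not examined. *SQE1*, *SQE2* and *SQE3* were not called in *bli* relative to WT (log2 fold changes of 4.3e-05, -0.50 and -0.99). *SQE3* was called lower than WT in *bli ire1b* (-1.29). *SQS2*, named as a squalene synthase gene, was called lower in *bli ire1b* (-2.04) and in *bli* (-1.32). *SQS1* was not called in either (log2 fold changes of -0.05 and 0.10 in the same order). Enzyme activity of either product was not tested. Of the 20 mevalonate and squalene genes tested, 1 was called higher and 1 lower in *bli ire1a*, 1 higher and 4 lower in *bli ire1b*, and 1 higher and 2 lower in *bli*, each relative to WT. These calls were *SQE6* (higher) and *SQE5*, *SQS2*, *SQE4* and *SQE3* (lower), and no other gene of the list was called. The median log2 fold changes were -0.04, -0.05 and -0.01 in the same order. Over all genes 1.38%, 3.08% and 4.15% were called higher in that order, and 1.54%, 7.05% and 5.08% lower.

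**Figure D5:**
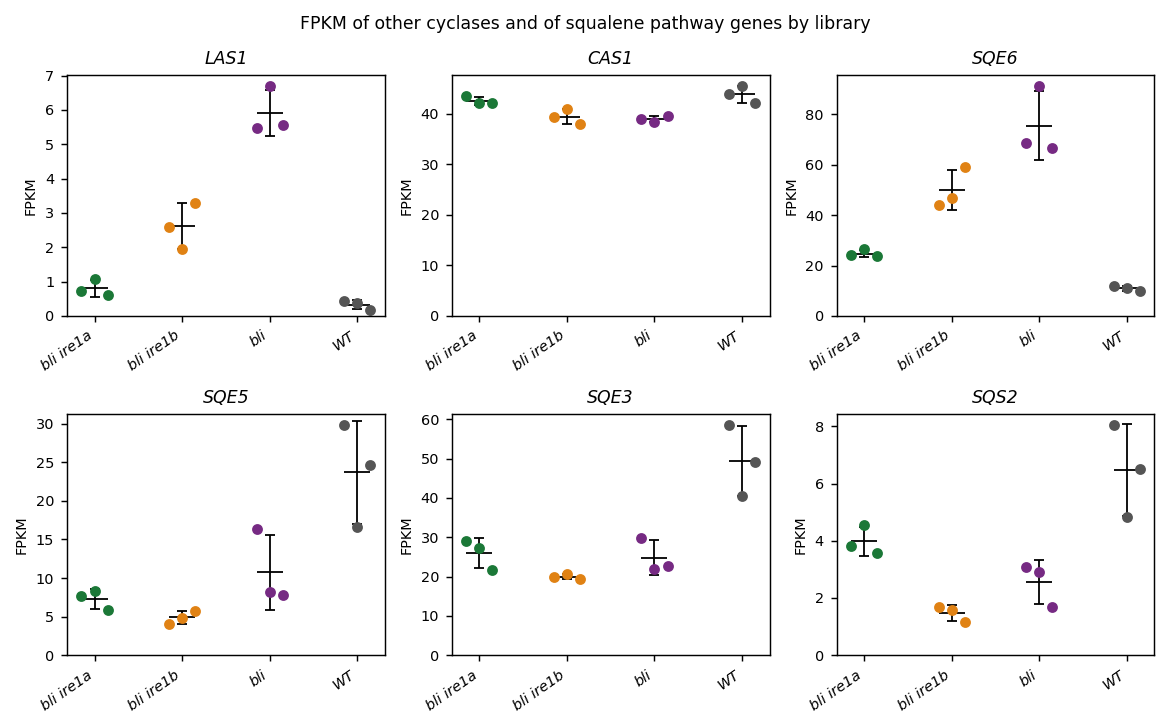
FPKM of 2 cyclases outside the clusters (*LAS1* and *CAS1*, the cycloartenol synthase of sterol synthesis) and of 4 genes named for the squalene pathway. Each library is shown, with the genotypes *bli ire1a*, *bli ire1b*, *bli* and WT on the horizontal axis. Points are libraries, the wide bar is the mean and the whiskers are the SD of 3 libraries. *LAS1* and *SQE6* are highest in *bli* and lowest in WT, whereas *SQE5*, *SQE3* and *SQS2* are highest in WT.

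Sterol genes and the remaining triterpene clusters gave few calls. Of 11 sterol pathway genes, 0 were called in any of the 6 comparisons. Of 7 tested genes of the other triterpene clusters, *CYP702A5* was called lower in *bli* (log2 fold change -1.04) and *CYP702A6* in *bli ire1b* (-1.57), each relative to WT, and 0 were called in the other 4 comparisons. The thalianin reductase genes *THAR1* and *THAR2*, which act after the thalianol cluster from other chromosomal places, were not called in any comparison. *THAR1* had 5.10, 6.69 and 10.1 FPKM in *bli ire1a*, 6.62, 10.7 and 10.7 FPKM in *bli ire1b*, and 11.3, 12.7 and 17.3 FPKM in *bli*, against 6.89, 11.7 and 12.2 FPKM in WT.

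Across the 12 libraries the members of a cluster were not uniformly alike. As a description over libraries that share their genotypes, Pearson's r between *MRN1* and *CYP705A12* was 0.89, and *CYP71A16* had a higher r with *THAD* (0.82) than with *MRN1* (0.43). *THAS1*, *THAH* and *THAD* had r of 0.86 to 0.89 with each other, whereas *THAA2* had r of 0.84 with *MRN1* and of -0.33 with *THAA1* in its own cluster. The 5 genes most like the mean marneral profile, of 19294 candidates, were AT4G33700, *LAC7*, *STR18*, AT2G17500 and AT1G44160 (r of 0.89 to 0.93 over 12 libraries). Those most like the thalianol profile were *NIP5;1*, AT2G17500, AT3G26460, *MLP329* and *ARI8* (r of 0.87 to 0.90). With Spearman's rho, 1 of the 5 remained for the marneral cluster and 0 of the 5 for the thalianol cluster.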

How the data were processed

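RNA-Seq libraries of 4 genotypes (3 each) were made with an Illumina TruSeq RNA kit. Per the study's methods the authors removed low-quality reads, aligned to TAIR10 with TopHat and tested with Cuffdiff, and deposited FPKM values for each gene and library. Which program wrote them and whether strand was used are not given in the sources used here. The submitters' processing notes instead name Bowtie 0.12.2 and the mouse build mm8, and that conflict was not resolved.

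Groups came from the genotype labels. As FPKM are not counts, log2(FPKM + 0.1) of the 20645 genes with a mean of at least 0.5 FPKM was tested with limma 3.58.1 in R 4.3.3 (all 4 genotypes in 1 model, 8 residual degrees of freedom, mean-variance trend), with Benjamini-Hochberg adjustment over all genes tested. Fold changes on this scale understate those of low genes. Calls needed adjusted p of 0.05 or less and a fold change of 2 or more, or of 0.5 or less, and the study's rule used unadjusted p. An exact permutation test of 3 against 3 libraries cannot go below p = 0.1. The study's methods call the replicates biological, and neither they nor the labels say whether these were separate cultures, so p-values measure the spread between these libraries.

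There were 23 alternatives: pseudocounts of 1 and 0.01, no filter, a mean of at least 1 FPKM, fits of only the 2 genotypes compared, a replicate block, unadjusted p, upper-quartile scaling, quantile normalization, no trend, a root marker covariate and leaving out each of the 12 libraries. The fits and the step search were tested on simulated data. Steps were sought up to 30 multiples with a tolerance of 0.15 steps. Positions, names and promoters came from RefSeq TAIR10.1, read with Python 3.11.15. With blastn 2.17.0, the highest identity of a member to another locus, over matches of at least 100 bases, was 91.0% (*THAS1*, over 111 bases). Text names all members, called members of the other lists (at most 4 a list by fold size), the neighbouring genes and the 5 most alike genes. All *SQE* and *SQS* genes are named as well, called or not. The members and lists were chosen with earlier results of these data known, and *MRN1* was also among the genes the study picked for follow-up.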

Additional observations from a re-analysis of the deposited data

How the results depend on the processing

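No result changed direction past the threshold in any of the 23 alternatives. The rise of *MRN1* in *bli* relative to WT and its fall in *bli ire1a* relative to *bli* passed in 22 of 22 alternatives (with a mean of at least 1 FPKM *MRN1* was not tested), and *CYP705A12* in *bli ire1a* relative to *bli* in 23 of 23. The 3 members called higher in *bli* relative to WT became 1 with a pseudocount of 1 and 7 with the root marker covariate. The 4 called lower in *bli ire1a* relative to *bli* became 3 with only the 2 genotypes, 2 with a pseudocount of 1 or upper-quartile scaling and 7 with the covariate, and 2 to 4 when a library was left out. For *bli ire1b* relative to WT, the 1 called higher became 0 with a pseudocount of 1 or a mean of at least 1 FPKM and 2 with quantile normalization (0 to 2 without single libraries), and the 0 called lower became 1 with unadjusted p. For *bli ire1b* relative to *bli*, the 1 called lower became 4 with unadjusted p, 2 with a pseudocount of 1 or only the 2 genotypes, and 0 with a pseudocount of 0.01, a mean of at least 1 FPKM, quantile normalization or the covariate (0 to 2 without single libraries). In that comparison *CYP71A16* passed without *bli ire1a* replicate 3 (adjusted p = 0.044 from limma) and *CYP705A12* without WT replicate 2 (0.048). The causes were not tested, apart from the stricter filter, which removes *MRN1*.

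Replicate numbers gave no clear pairing of the libraries: deviations of 18 same-numbered pairs had r of -0.11 to 0.09, and 6 of 12 libraries correlated best with their own number. The r of differently numbered pairs was not set beside these, so weak pairing was not tested. With the replicate block, *MRN1* in *bli ire1b* relative to *bli* had an adjusted p of 0.056 and *THAD* 0.047 from limma, and the counts of called members were 3 in *bli* relative to WT, 4 in *bli ire1a* relative to *bli* and 1 in *bli ire1b* relative to *bli*.

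Over all genes, counts moved by more than 1.5 times in these cases. A pseudocount of 1 gave 187 higher in *bli ire1a* relative to WT (285 otherwise), 174 higher in *bli ire1a* relative to *bli* (299) and 207 higher in *bli ire1a* relative to *bli ire1b* (360, and 232 without *bli ire1a* replicate 2). Without WT replicate 1, 201 were lower in *bli ire1a* relative to WT (317). In *bli ire1b* relative to *bli* the 43 higher and 189 lower became 111 and 373 with unadjusted p, 20 higher with only the 2 genotypes, and as few as 19 and 80 without a single library. Quantile normalization moved no count by that much but changed the split of higher and lower genes. It gave 815 higher and 1101 lower in *bli ire1b* relative to WT (636 and 1456 otherwise), and 256 and 187 in *bli ire1a* relative to *bli ire1b* (360 and 152). If a step is 1 fragment, the low members rested on few fragments, with 2 to 7 per WT library for *MRN1*. How far depth limits their calls was not tested.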

Other observations

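*ATS* (AT5G42630), the called gene beside the marneral cluster, had 2.16, 3.08 and 2.85 FPKM in *bli ire1a*, 1.51, 1.78 and 2.63 FPKM in *bli ire1b*, and 1.35, 1.09 and 1.45 FPKM in *bli*, against 3.42, 4.35 and 3.29 FPKM in WT. Its *bli ire1a* and *bli ire1b* libraries were all above *bli* and all below WT. Against *bli*, *bli ire1a* had a log2 fold change of 0.99, just under the fold cutoff (limma adjusted p = 0.015), and *bli ire1b* one of 0.54 (limma adjusted p = 0.21). This gene was singled out after its values were seen.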
